A study of Mus musculus with 5 samples.

Results

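Alveolar macrophages of mouse lungs that carried 4T1 metastases were followed here, as the cells to which the authors had given the cell type label Alv Macro within their class of monocyte-derived cells. There were 1013 such cells among 22118 cells with a named type, out of 23852 cells in 5 single-cell RNA libraries. The CM library of day 11 held 177 of them, the TSF libraries a and b of day 11 held 234 and 224, the CM library of day 16 held 202, and the TSF library of day 16 held 176.

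The study asked how factors shed by a primary tumor change lung metastases, and the lung cells around the cancer cells were profiled in the same libraries. Female BALB/c mice, 6 weeks old at the start, received intravenous tumor-secreted factors (TSF, medium conditioned by pieces of mouse mammary tumors) or control medium (CM, the same medium kept without tumor) 3 times per week for 3 weeks. All mice then received 25000 4T1 cells, a BALB/c mammary carcinoma line, which carried the surface reporter CD90.1, so the CM mice also had cancer cells injected. Lungs were taken at day 11, from mice labelled as 10 weeks old, or at day 16, from mice labelled as 11 weeks old. Each library pooled the cells of 3 dissociated lungs, and the cancer cells reached the lung from the vein and not from a growing primary tumor.

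Alveolar macrophages are the resident phagocytes of the airspaces. They take up and break down surfactant, clear inhaled particles and dying cells, and depend on GM-CSF made by the alveolar epithelium. They are seeded by fetal monocytes and largely renew themselves in place, while blood monocytes can add to them after injury, so the class name monocyte-derived is the authors' grouping and not a statement on the origin of each cell. M2 macrophages, monocytes and a joint group of M1 macrophages and dendritic cells are the other types of that class.

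CM at both days and TSF at day 16 had 1 library each, so no test between treatments or days was possible, and every interval below is an exact 95% interval that covers counting error only, not differences between mice. The sample titles call TSF libraries a and b replicates a and b, and do not say whether they came from the same mice. Their cell class counts differed by less than the sampling noise, and they were counted as 1 sample, by their mean. That small difference does not by itself show that they are 1 sample. The 5 libraries held from 3835 to 5580 cells and from 13240822 to 21451787 UMIs (unique molecules counted). Granulocytes made up 4.47% to 6.00% of the annotated cells in 4 libraries and 29.1% in the TSF library of day 16. No cell barcode of an alveolar macrophage occurred in more than 1 library, in any of 10 pairs of libraries. Over all cells, a pair of libraries shared from 14 to 46 barcodes. The most were shared by TSF a and b, which also held the most cells. Any difference in processing between the days cannot be told apart from the day itself.

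The label itself was not checked against marker genes, because no expression matrix of the alveolar macrophages was analysed here. The 4 genes taken as markers were Chil3, a chitinase-like secreted protein (ENSMUSG00000040809, GRCm38 chromosome 3, 106147554 to 106167564, minus strand), Ear2, a ribonuclease of the eosinophil-associated family (ENSMUSG00000072596, chromosome 14, 44102654 to 44103534, plus strand), Siglecf, a sialic acid-binding receptor (ENSMUSG00000039013, chromosome 7, 43351341 to 43359531, plus strand), and Marco, a scavenger receptor for particles and bacteria (ENSMUSG00000026390, chromosome 1, 120474538 to 120505024, minus strand). Chil3 and Ear2 were among the highly variable genes that the authors used to place and cluster the cells, and Siglecf and Marco were not. Ear2 shares much of its sequence with Ear1, and how the counting divided reads between both is not known.

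Values per gene were at hand only for the cancer cells of day 16, where they give the level of these genes outside the macrophages and do not bear on the label. None of 139 cancer cells of the TSF library had a UMI of Chil3, Ear2, Siglecf or Marco, which limits the share with a detected UMI to 2.16% but does not bound the share expressing the gene. By the methods, ambient RNA was subtracted from the counts before expression was compared, and the effect of this on the zeros was not tested. In the CM library, Ear2 was seen in 1 of 29 cancer cells (3.45%, mean of 0.0578 CP10k, the authors' depth-scaled unit of UMIs per cell), and Chil3, Siglecf and Marco in 0 of 29, where the limit on detection is 10.3%. Of 15 further alveolar macrophage genes, 11 were highly variable genes, and 4 and 6 had a UMI in cancer cells of the CM and the TSF library. The highest of these was Plet1, a placenta-expressed surface protein that epithelial cells also make, seen in 19 of 29 CM cells and 84 of 139 TSF cells at means of 0.798 and 0.838 CP10k. All 8 M2 or interstitial macrophage genes, 5 neutrophil genes, 4 monocyte genes and 4 alveolar type 2 genes on the lists were highly variable genes. In CM and TSF cancer cells, respectively, 2 and 2 of the M2 genes, 0 and 4 of the neutrophil genes, 2 and 3 of the monocyte genes, and 1 and 0 of the alveolar type 2 genes had a UMI. A gene is more easily seen in 139 cells than in 29, so these counts do not compare the treatments. The share of all genes that were highly variable or had a UMI was not computed, so the counts are no result about the lists.

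Alveolar macrophages were close to the same share of the lung cells in all 3 libraries of day 11, and at day 16 their share moved apart between CM and TSF where granulocytes were counted. Of all annotated cells, they made up 4.74% (4.08% to 5.47%) in the CM library of day 11, 4.58% (4.02% to 5.19%) and 4.66% (4.08% to 5.30%) in TSF libraries a and b, 5.66% (4.93% to 6.47%) in the CM library of day 16 and 3.59% (3.09% to 4.15%) in the TSF library of day 16. The intervals of the CM and TSF libraries overlapped at day 11 and did not at day 16.

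With granulocytes left out of the denominator, the TSF library of day 16 lay beside the libraries of day 11. The share was then 4.96% (4.27% to 5.72%) in CM at day 11, 4.80% (4.21% to 5.43%) and 4.90% (4.30% to 5.57%) in TSF a and b, 6.02% (5.24% to 6.88%) in CM at day 16 and 5.07% (4.36% to 5.85%) in TSF at day 16. The intervals of the CM and TSF libraries of day 16 overlapped on this scale. CM at day 16 had the highest share in either reckoning.

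**Figure D1:**
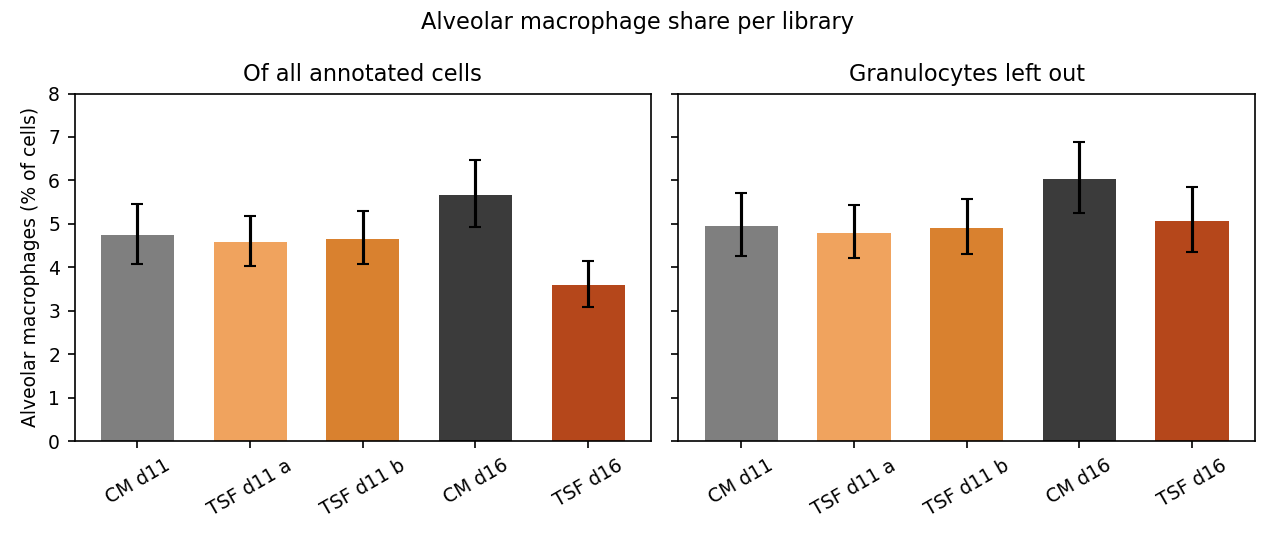
Alveolar macrophages as a percent of all annotated cells (left) and of annotated cells without granulocytes (right), 1 bar per library, with exact 95% intervals that cover counting error only. The TSF library of day 16 is at 3.59% on the left and at 5.07% on the right, where it lies beside the 3 libraries of day 11 at 4.80% to 4.96%.

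As ratios without granulocytes, TSF over CM was 0.979 (0.821 to 1.17) at day 11 and 0.842 (0.684 to 1.04) at day 16, and day 16 over day 11 was 1.22 (0.988 to 1.50) in CM and 1.05 (0.874 to 1.25) in TSF. None of these 4 intervals lay apart from 1. Of immune cells without granulocytes, day 16 over day 11 in CM was 1.26 (1.02 to 1.54), so there the interval did lie apart from 1, and the other 3 comparisons again had intervals that held 1. Among 19 cell types, the interval lay apart from 1 for 6 types (31.6%) in TSF over CM at day 11, 8 types (42.1%) at day 16, 10 types (52.6%) between the days in CM and 9 types (47.4%) between the days in TSF, and alveolar macrophages were not among them in any of the 4 comparisons. With all annotated cells as the denominator, the TSF share of day 16 was 0.778 times (0.650 to 0.928) that of day 11, while the CM share was 1.20 times (0.973 to 1.47) that of day 11.

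Within the monocyte-derived class, alveolar macrophages had their highest share in the CM library of day 16 and lower, about like shares in the other 4 libraries. They were 33.8% (29.7% to 38.0%) of the class in CM at day 11, 34.8% (31.2% to 38.5%) and 38.1% (34.2% to 42.2%) in TSF a and b, 50.9% (45.8% to 55.9%) in CM at day 16 and 31.2% (27.4% to 35.1%) in TSF at day 16. TSF over CM was 1.08 (0.902 to 1.29) at day 11 and 0.612 (0.497 to 0.753) at day 16. Between the days, the ratio of shares was 1.51 (1.22 to 1.85) in CM and 0.855 (0.717 to 1.02) in TSF. Granulocytes do not enter this denominator, but the other types of the class do, so this share also depends on their numbers.

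**Figure D2:**
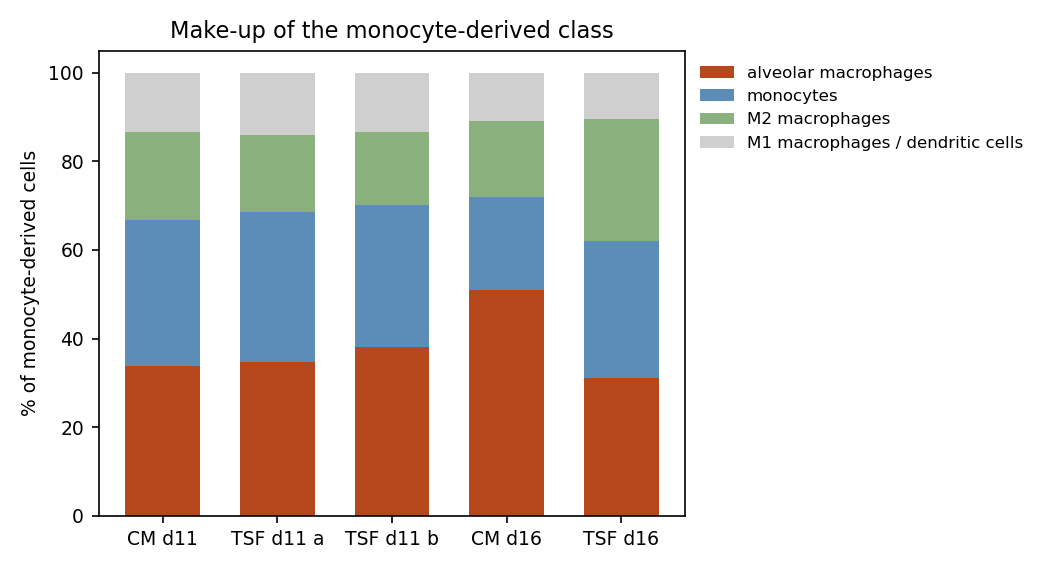
Percent of monocyte-derived cells that were alveolar macrophages, monocytes, M2 macrophages, or M1 macrophages and dendritic cells, 1 stacked bar per library. Alveolar macrophages take 50.9% of the bar of CM at day 16 and 31.2% to 38.1% of the other 4 bars.

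M2 macrophages and monocytes, the other large types of the class, were higher in TSF than in CM at day 16, while alveolar macrophages were not. Without granulocytes, M2 macrophages of the CM library of day 16 were 0.696 times (0.505 to 0.954), and monocytes 0.517 times (0.394 to 0.675), their share at day 11. In TSF, M2 macrophages were 1.99 times (1.60 to 2.45) and monocytes 1.14 times (0.948 to 1.36) their share at day 11. At day 16, TSF over CM was then 2.22 (1.66 to 2.99) for M2 macrophages and 2.00 (1.53 to 2.63) for monocytes, beside 0.842 (0.684 to 1.04) for alveolar macrophages. For the joint group of M1 macrophages and dendritic cells it was 1.33 (0.880 to 2.01), an interval that also held 1. Within the monocyte-derived class the same ratios were 1.61 (1.20 to 2.18) and 1.46 (1.12 to 1.91), beside 0.612 for alveolar macrophages. The joint group of M1 macrophages and dendritic cells had 0.964 (0.640 to 1.46) there. Shares within the class are parts of the same total, so higher shares of some types lower those of the others, and these ratios are not separate observations.

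Counted per M2 macrophage, a type named for the tissue-repair state of macrophages, alveolar macrophages numbered 1.70 in CM at day 11, 2.00 and 2.31 in TSF a and b, 2.97 in CM at day 16 and 1.13 in TSF at day 16. The counts of M2 macrophages behind these were 104, 117, 97, 68 and 156 cells. TSF over CM of this quotient was 1.27 (0.928 to 1.70) at day 11 and 0.380 (0.263 to 0.546) at day 16. Per monocyte, the precursor cell that comes from blood, the quotients were 1.02 in CM and 1.03 and 1.19 in TSF at day 11, 2.40 in CM and 1.01 in TSF at day 16, and TSF over CM was 1.08 (0.833 to 1.39) and 0.421 (0.298 to 0.592). The CM library of day 16 had the highest value of both quotients. Per cell of the joint group of M1 macrophages and dendritic cells, TSF over CM was 1.05 (0.742 to 1.47) at day 11. At day 16 it was 0.635 (0.397 to 1.01), and both of these intervals held 1.

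Alveolar macrophages live on the alveolar epithelium. The annotation has a class of alveolar cells with the types ACT1 and ACT2, names that the sources used here do not spell out, and they are used as given. Per ACT1 cell, their number was 1.92 in CM and 2.32 and 2.55 in TSF at day 11, and 2.43 in CM and 1.87 in TSF at day 16. TSF over CM was 1.26 (0.917 to 1.72) at day 11 and 0.769 (0.529 to 1.12) at day 16, and both intervals held 1. Per ACT2 cell, their number was 0.571 in CM and 0.592 and 0.649 in TSF at day 11, and 1.49 in CM and 0.907 in TSF at day 16. This quotient was higher at day 16 under both treatments, 2.60-fold (1.94 to 3.50) in CM and 1.46-fold (1.15 to 1.87) in TSF. TSF over CM at day 16 was 0.611 (0.448 to 0.832). The ACT2 share itself differed: without granulocytes, it was 0.467 times (0.379 to 0.573) that of day 11 in CM. In TSF it was 0.714 times (0.606 to 0.837), and TSF over CM of the ACT2 share at day 16 was 1.38 (1.10 to 1.73). The intervals of the alveolar macrophage share in the same comparisons all held 1. How well each cell type came through the dissociation of the lungs was not tested.

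More UMIs per cell were counted in alveolar macrophages of day 16 than in those of day 11, under CM and under TSF. UMIs per cell also depend on the capture and sequencing of each library, and most other cell types had more at day 16 too. The median was 3162 UMIs per cell in CM at day 11 (quartiles 2200 and 4312), 2809 (2117 and 3705) and 3025 (2145 and 4181) in TSF a and b, 5170 (3391 and 7290) in CM at day 16 and 4375 (3041 and 6135) in TSF at day 16. Cells with over 8000 UMIs were 2.26%, 1.28% and 1.34% of alveolar macrophages in the 3 libraries of day 11, and 19.3% and 14.2% in CM and TSF at day 16. The ratio of medians was 1.64 in CM and 1.50 in TSF between the days, and 0.922 at day 11 and 0.846 at day 16 between TSF and CM.

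Among 15 cell types with at least 20 cells in each library, the ratio between the days in CM was highest in alveolar macrophages. The other types ran from 0.980 in ACT1 cells to 1.37 in M2 macrophages, with a median of 1.22. In TSF, alveolar macrophages ranked 3rd, beside 1.52 in M2 macrophages and 1.59 in neutrophils, and the median of the other types was 1.13. Divided by the same ratio over all other annotated cells, the values for alveolar macrophages were 1.39 in CM and 1.40 in TSF. With granulocytes left out of those other cells, the values were 1.36 in CM and 1.30 in TSF. No test of the ranking of cell types was possible with 1 CM library per day.

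**Figure D3:**
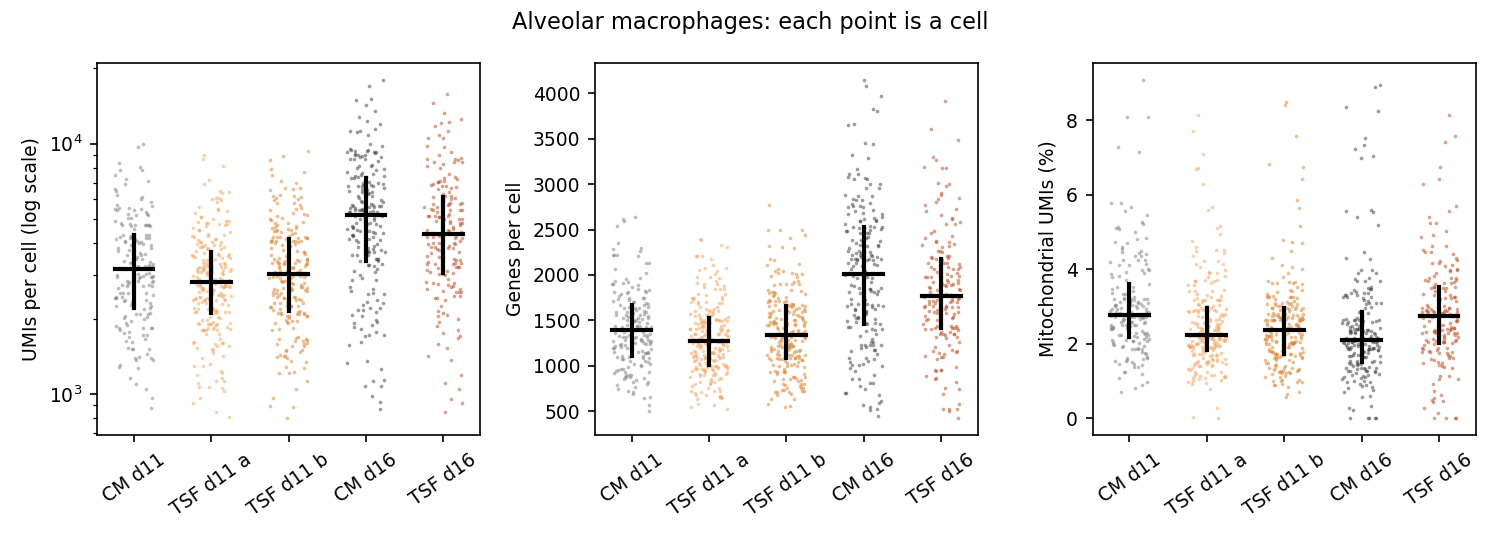
UMIs per cell (log scale), genes per cell, and percent of UMIs from mitochondrial genes in the 1013 alveolar macrophages, by library. Each point is a cell, the horizontal line is the median and the vertical line runs between the quartiles; median UMIs are 2809 to 3162 at day 11 and 4375 to 5170 at day 16.

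Genes per cell went with the depth, with medians of 1390, 1273 and 1345 in CM, TSF a and TSF b at day 11 and 2016 and 1773 in CM and TSF at day 16. Among cells between 2373 and 5067 UMIs (the quartiles over all alveolar macrophages), the medians were 1439, 1400 and 1463 genes at day 11 and 1610 and 1594 genes at day 16. The median depths inside this range were 3354, 3203 and 3339 UMIs at day 11 and 3828 and 3518 UMIs at day 16, so the cells of day 16 were still the deeper ones. Counts of genes thinned to 1 depth were not analysed here, because that needs the matrix.

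The percent of UMIs from mitochondrial genes, a common measure of cell stress and RNA quality, had medians of 2.78% in CM and 2.24% and 2.38% in TSF at day 11, and 2.10% in CM and 2.74% in TSF at day 16. TSF was below CM at day 11 (ratio 0.831) and above it at day 16 (1.30). Other cell types with a median above 0 ran from 0.867 to 1.12 at day 11, and from 0.957 to 1.50 at day 16. Alveolar macrophages were thus the lowest of 14 types at day 11 and ranked 5th from the highest at day 16.

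The place of alveolar macrophages in the authors' clustering differed between the days far more than between the treatments. The authors clustered all libraries together, and alveolar macrophages occupied 6 fine clusters, numbered 11, 12, 34, 60, 70 and 166, which held no other named type and 25 cells of 1 doublet group. Cluster 11 held 40.1% of alveolar macrophages in CM and 48.3% and 50.0% in TSF a and b at day 11, against 3.47% in CM and 7.39% in TSF at day 16. Cluster 34 held 26.6%, 24.8% and 24.6% at day 11 and 3.96% and 13.6% at day 16. Both clusters were thus mostly cells of day 11.

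Clusters 70 and 12 had the opposite pattern. Cluster 70 held 4.52%, 2.56% and 4.02% of alveolar macrophages in CM, TSF a and TSF b at day 11, against 37.1% in CM and 40.3% in TSF at day 16. Cluster 12 held 10.7%, 8.97% and 6.25% at day 11 and 41.6% and 26.1% at day 16. Cluster 60 was steadier, at 17.5%, 13.2% and 12.1% and then 13.9% and 11.9%, and cluster 166 held 14 cells in all. These are descriptions of a clustering made from the expression of these same cells, and the genes that define the clusters were not analysed here.

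**Figure D4:**
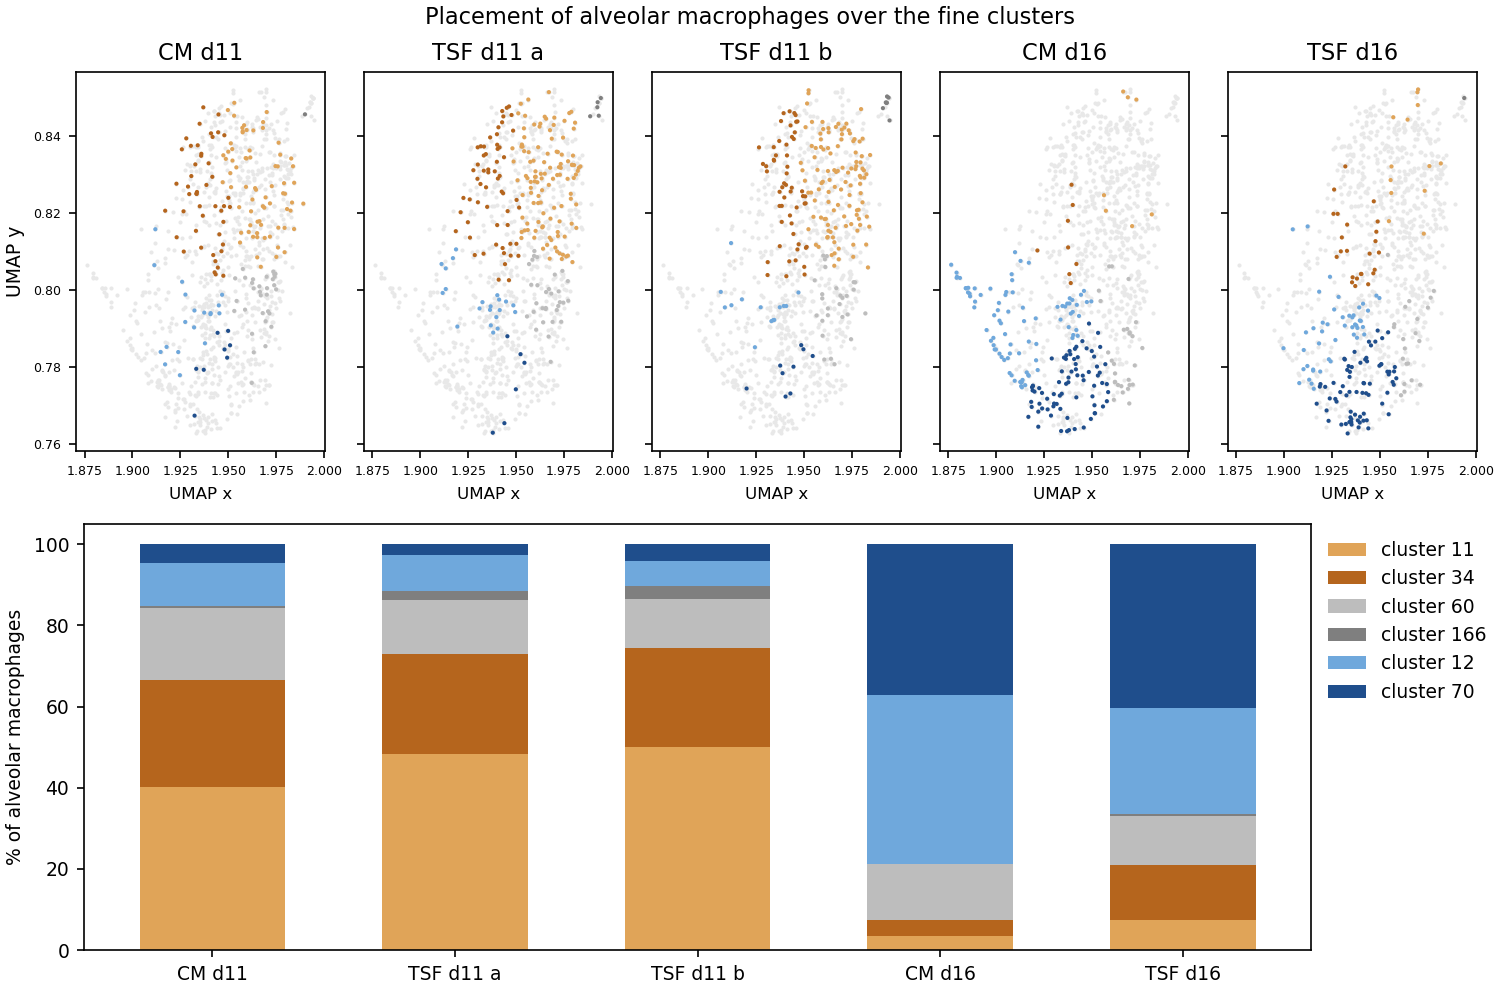
Top, position of alveolar macrophages on the authors' UMAP map (a 2-dimensional layout without units), 1 panel per library, with cells of the library coloured by fine cluster over all 1013 in grey. Bottom, percent of each library's alveolar macrophages in each fine cluster; clusters 11 and 34 (brown) fill 66.7% to 74.6% of the bars of day 11 and 7.43% to 21.0% of those of day 16.

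Clusters 11 and 34 together, a pair chosen after their values were seen, held 66.7% (59.2% to 73.6%) of alveolar macrophages in CM at day 11, 73.1% and 74.6% in TSF a and b, 7.43% (4.22% to 12.0%) in CM at day 16 and 21.0% (15.3% to 27.8%) in TSF at day 16. The clusters also differed in depth, with median UMIs of 2697 in cluster 11, 2556 in cluster 34, 3806 in cluster 12 and 5830 in cluster 70. Among cells between 2373 and 5067 UMIs, clusters 11 and 34 held 68.0%, 72.3% and 69.6% at day 11, 4.48% (0.933% to 12.5%) in CM and 22.9% (14.4% to 33.4%) in TSF at day 16. Within this range the cells of day 16 were still the deeper ones, and the part of depth in the placement was not tested. At day 16 the pair held a larger share in TSF than in CM, by intervals that did not overlap, with 1 library on each side.

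Placement can be put in 1 number as the percent shared between a pair of libraries, the sum over fine clusters of the smaller of both shares, which is 100% for the same distribution. It was 95.8% between TSF libraries a and b, 90.3% and 87.6% between CM and TSF at day 11, and 82.6% between CM and TSF at day 16. Between the days it was 36.5% in CM, and 45.1% and 43.8% in TSF. Among cells between 2373 and 5067 UMIs, the values between the days were 36.4% in CM and 46.6% and 47.7% in TSF.

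In CM, alveolar macrophages shared the least placement between the days of 15 cell types, followed by neutrophils at 51.3% and B cells at 68.6%, with a median of 76.3% over the other types. M2 macrophages shared 83.3% and monocytes 86.8%. In TSF, alveolar macrophages were second lowest, after neutrophils at 20.5% and 25.3% for libraries a and b, and before ACT1 cells at 55.7% and 59.0%. A type that was split into more clusters can share less, and the number of clusters was not matched between types. Alveolar macrophages had 6 fine clusters, and other types had from 2 in M1 macrophages and dendritic cells to 34 in endothelial cells. M2 macrophages and monocytes had 8 each. The methods describe no step that aligns libraries with each other before clustering.

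**Figure D5:**
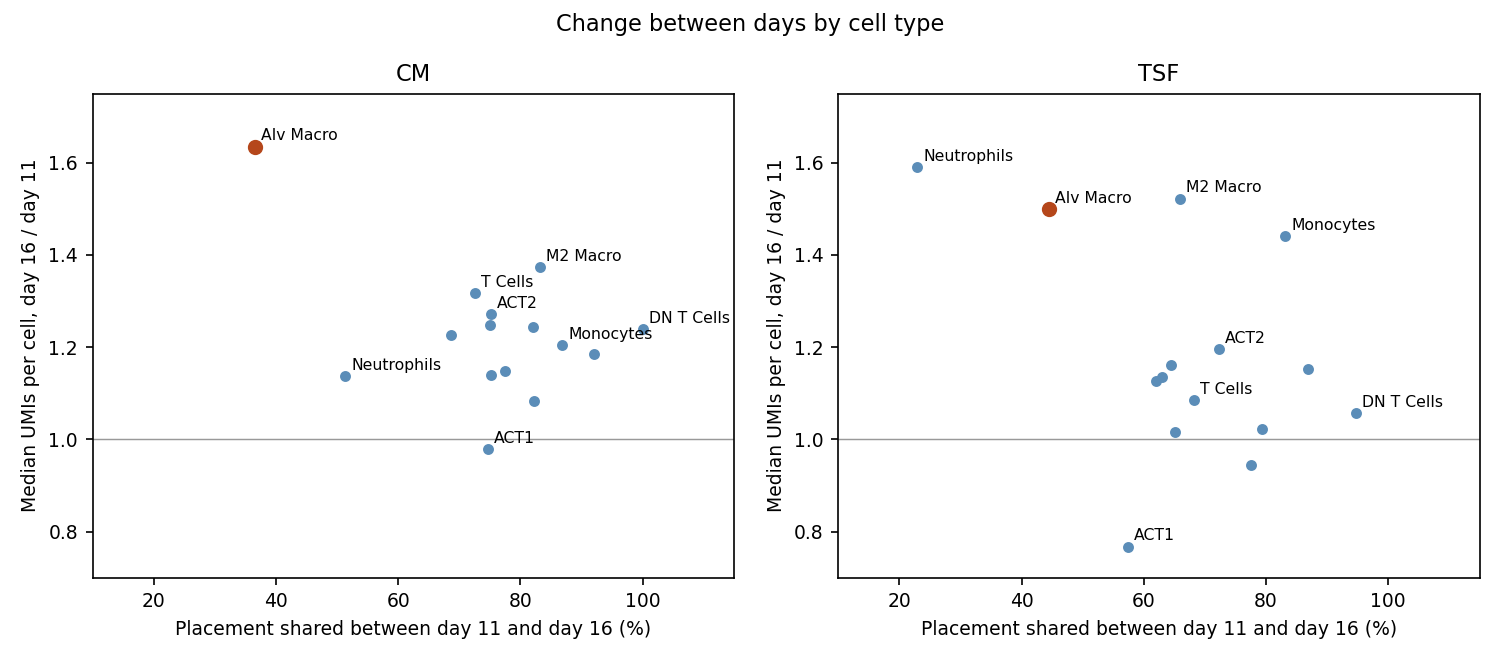
Median UMIs per cell at day 16 over day 11 (vertical axis) against the percent of placement over fine clusters shared between the days (horizontal axis), 1 point per cell type, in CM (left) and TSF (right, mean over libraries a and b). Alveolar macrophages (red) are at 36.5% and 1.64 in CM, apart from the other 14 types, and at 44.4% and 1.50 in TSF.

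At the finest level of the clustering, alveolar macrophages fell into 46 sub-clusters, of which 35 had at least 10 cells and held 969 cells. Day 16 gave 37.3% of all alveolar macrophages. Of the 35 sub-clusters, 10 were over 90% cells of day 11, 5 of them without a cell of day 16, and 5 were over 90% cells of day 16, 2 of them without a cell of day 11. The 15 sub-clusters of nearly 1 day held 483 cells. The larger of the pair that had no cell of day 11 held 27 cells of CM and 3 of TSF, and in the largest that had no cell of day 16 there were 11 cells of CM and 14 and 15 cells of TSF a and b.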

How the data were processed

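Single-cell 5' libraries of 5 samples were made and processed by the authors, with Cell Ranger on mm10 (GRCm38.p6) and Seurat 4.1.0 named in the submitters' processing notes. The deposited cell table gave, per cell, UMI counts after the authors' ambient RNA correction, the number of genes (another whole-number measure, deposited as such), the percent of UMIs from mitochondrial genes computed by the authors, UMAP coordinates (a score without unit made by the authors), clusters and cell types. Its cells had at least 800 UMIs, 202 genes and at most 9.99% mitochondrial UMIs. The denominators held no cells that the authors had set aside as doublets or unknown. For cancer cells of day 16, the authors' mean signal per gene (CP10k, UMIs scaled to a fixed total per cell) and counts of cells with a UMI were read; fold changes, p-values and enrichment scores of the authors' own comparisons were not used. Of the cell table, 2 libraries with 11943 cells were not among the samples described and were not used.

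Groups came from the labels. Shares were given with Clopper-Pearson intervals and ratios with exact conditional intervals, both at 95% and for counting error only; for TSF at day 11 the mean of a and b was used, with intervals from their pooled counts. Where no cell had a UMI, the upper limit was 3 counts of the total. Interval code was tested on simulated data. Cell types with fewer than 20 cells in a library were left out of the rankings. Treatments and days were not tested against each other. The only p-value taken from cells compared the class counts of TSF libraries a and b, as a look for a repeated library (p = 0.445 by chi-square over 12 classes). Alternatives were other denominators, minimum UMIs (2000), a mitochondrial maximum (5%), leaving out TSF library a or b, and counting the doublet group as alveolar macrophages. Genes to be named were the 4 markers and at most the 3 highest of each further marker list. Gene coordinates were from GENCODE M21 on GRCm38. The cell type and the lists were chosen with earlier results of these data known. Values were computed in Python 3.11.15 with scipy 1.17.1, pandas 2.3.3 and numpy 2.4.6, and drawn with matplotlib 3.10.9.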

Additional observations from a re-analysis of the deposited data

Results flagged for a closer look

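For 8 measures of alveolar macrophages, the ratio of TSF over CM lay on one side of 1 at day 11, in both TSF libraries, and on the other side at day 16. For the 7 shares and quotients of cells, the counting interval of the ratio at day 11 held 1, so no direction at day 11 is established. At day 16 the interval also held 1 for the share of immune cells without granulocytes, at 0.838 (0.681 to 1.03). The same was true per ACT1 cell, at 0.769 (0.529 to 1.12), so for both measures no direction is established at either day. Each of the 8 measures is given as the ratio of TSF over CM at day 16 divided by that at day 11. With 1 CM library per day, none of these differences between the days was tested, and all of them share the same CM libraries. The 8 were picked by this pattern, and the 7 shares and quotients set the same alveolar macrophage counts against different cells. Other measures did not have the pattern. TSF over CM was below 1 at both days for the share of all annotated cells (0.976 and 0.635), the share without granulocytes (0.979 and 0.842) and the median UMIs (0.922 and 0.846).

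The share of alveolar macrophages among immune cells had a TSF over CM ratio of 1.02 at day 11 and 0.513 at day 16, a quotient of 0.505, and that denominator includes granulocytes, which were 29.1% of annotated cells in TSF at day 16. With granulocytes left out, the ratios were 1.03 and 0.838, a quotient of 0.817. For the share of the monocyte-derived class the quotient was 0.568, from 1.08 and 0.612.

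Per M2 macrophage the quotient was 0.300, the furthest from 1 of the 8, from ratios of 1.27 and 0.380. Per monocyte it was 0.388, from 1.08 and 0.421. Per ACT1 cell it was 0.609, from 1.26 and 0.769, and per ACT2 cell 0.562, from 1.09 and 0.611. The median percent of mitochondrial UMIs turned in the other direction, with a quotient of 1.57 from ratios of 0.831 and 1.30.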

How the results depend on the processing

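For 15 results, 75 alternatives were computed, of which 66 stayed inside the counting interval or, where there was none, within the spread between TSF libraries a and b. Where that spread was the yardstick, leaving out TSF library a or b was bound to stay within it. Those alternatives are counted among the 66 but do not measure stability. The TSF over CM ratios of the share at day 11, close to 1, lay on either side of 1 between settings, from 0.952 to 1.03. The TSF over CM ratio of the share at day 16 was 0.635 of all annotated cells, 0.513 of immune cells and 0.910 of non-immune cells other than cancer cells plus alveolar macrophages. The ratio of median UMIs between the days fell from 1.64 to 1.39 in CM and from 1.50 to 1.40 in TSF when divided by that of all other annotated cells, and to 1.36 and 1.30 when granulocytes were left out of those. Placement shared over sub-clusters in place of fine clusters was 21.6% (CM) and 35.7% (TSF) between the days and 61.4% between TSF and CM at day 16. These divisions, all other alternatives for the UMI ratios between the days, the placement alternatives and the doublet group were chosen after seeing the data. Each library held 176 to 234 alveolar macrophages. With the counts of TSF a and b pooled, the interval of the TSF over CM share ratio without granulocytes at day 11 ran from 0.821 to 1.17 around 0.979. Between single libraries the interval was wider, as from 0.684 to 1.04 around 0.842 for TSF over CM at day 16. No paired analysis was possible because the groups share fewer than 2 replicate numbers and no result comes from a test.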

Other observations

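A small set of alveolar macrophages was almost without mitochondrial UMIs. Below 0.5%, a limit chosen after seeing the data, were 20 of 1013 cells (1.97%, 1.21% to 3.03%), with 0, 3 and 0 cells in CM, TSF a and TSF b at day 11 and 8 and 9 cells in CM and TSF at day 16. These cells had a median of 1861 UMIs and 863 genes, against 3421 UMIs and 1484 genes in the other 993 alveolar macrophages. Of the 20 cells, 12 lay in 1 sub-cluster of 16 cells, with a median of 0.0183% mitochondrial UMIs. Such values were common among neutrophils, of which 83.9% were below 0.5%, and the shares were 10.5% of ACT1 cells, 4.57% of NK cells, 4.03% of fibroblasts and 2.48% of pericytes. The other types were below alveolar macrophages, from 0.0666% of T cells to 1.18% of monocytes. The source of the low values was not tested. With the cells below 0.5% left out, clusters 11 and 34 held 5.15% of alveolar macrophages in CM and 19.2% in TSF at day 16.

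At the other end, a sub-cluster of 7 cells, all from the CM library of day 16, had a median of 6.98% mitochondrial UMIs. The 25 cells of the doublet group that lay in the clusters of alveolar macrophages had a median of 5631 UMIs, and 1, 11, 8, 1 and 4 of them came from CM at day 11, TSF a, TSF b, CM at day 16 and TSF at day 16.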
